A study of Salmo salar with 48 samples.

Results

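Liver DNA methylation was compared between control Atlantic salmon (Salmo salar) sampled at 3 days and at 4 weeks, to describe baseline levels and their drift in fish that were not stressed. The fish were chosen by their labels alone. They comprised 8 fish of 3 days and 8 different fish of 4 weeks, together 16 of the 48 fish of the study, which also warmed fish with and without reduced oxygen.

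All 16 control fish were juveniles of a commercial brood stock of the St. John River strain, kept at 12 °C and 100% air saturation. The 3 days and 4 weeks counted the time that the warmed fish had spent at 20 °C, and the control fish were taken at the same moments without any warming, so the comparison spans the interval between 2 samplings and not an exposure. Tanks T3 and T4 each gave 4 fish at each time. At 3 days there were 2 males, both from T3, and 6 females, and at 4 weeks there were 5 males and 3 females. Time, age of the fish and date of sampling cannot be told apart in this design, and a tank is the only unit shared by fish of both times.

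In vertebrates a methyl group on the cytosine of a CpG dinucleotide is copied to the daughter strand at each cell division, so methylation patterns tend to be stable in a tissue. CpG-dense stretches near the starts of active genes are usually free of methylation, whereas most other CpGs of the genome carry it. Intermediate levels are found where cells or alleles of a sample differ.

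DNA of each liver was treated with bisulfite, which turns unmethylated cytosine into uracil and spares methylated cytosine, and chosen stretches were then amplified by PCR and sequenced. Methylation levels are percentages of reads that kept a cytosine at the CpG. Cytosines that bisulfite failed to convert also count as methylated, and the conversion rate was not tested here. A level is a mean over all cells of a piece of liver, so a changed mixture of cells and a change within cells cannot be told apart. The files hold methylation calls only, so the liver label was not checked against marker genes.

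Calls common to all fish fell on 107 CpGs in 7 amplicons, of which 94 CpGs in 6 amplicons had at least 30 reads in every control fish and were used. Amplicons are named by chromosome, and their positions are those of the first and last CpG on the reference sequences of the deposited files. The ssa09 amplicon lay on chromosome 9 at chr9:121687029-121687311 and held 8 CpGs. An intermediate ssa04 amplicon of 18 CpGs lay at chr4:35435825-35436217, and a low ssa04 amplicon of 15 CpGs at chr4:44947109-44947524. The ssa14 amplicon held 14 CpGs at chr14:33502562-33502977, and the ssa03 amplicon held 16 at chr3:13688232-13688647. The ssa16 amplicon held 23 CpGs at chr16:37941696-37942102 and was the densest, with 5.65 CpGs per 100 bp against 2.83 to 4.58 in the others. Genes at these places are not named, since the only gene annotation in use follows a different assembly.

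A control fish had between 2337845 and 4481610 calls at the 107 CpGs, with a median of 3313805, and the means of both times differed by less than the spread between fish (exact permutation p = 0.888, two-sided, n = 8 per time). Depth differed far more between amplicons. Reads per CpG in the median fish numbered 94494.5 at ssa09, 74947.5 at intermediate ssa04, 33630.5 at ssa14, 26680 at low ssa04, 12227.5 at ssa16 and 551.5 at ssa03. Reads are PCR copies, and many can stem from 1 molecule, so errors below are spreads between fish and any interval on reads covers counting error only. The 13 CpGs on chromosome 15 had a median of 12 reads in the median fish and did not enter the comparison. Fish 84 and 108 stood apart technically: fish 84 had 4029 calls outside the amplicons, against 49 or fewer in the others, and fish 108 had 59 reads per CpG at low ssa04.

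**Figure D1:**
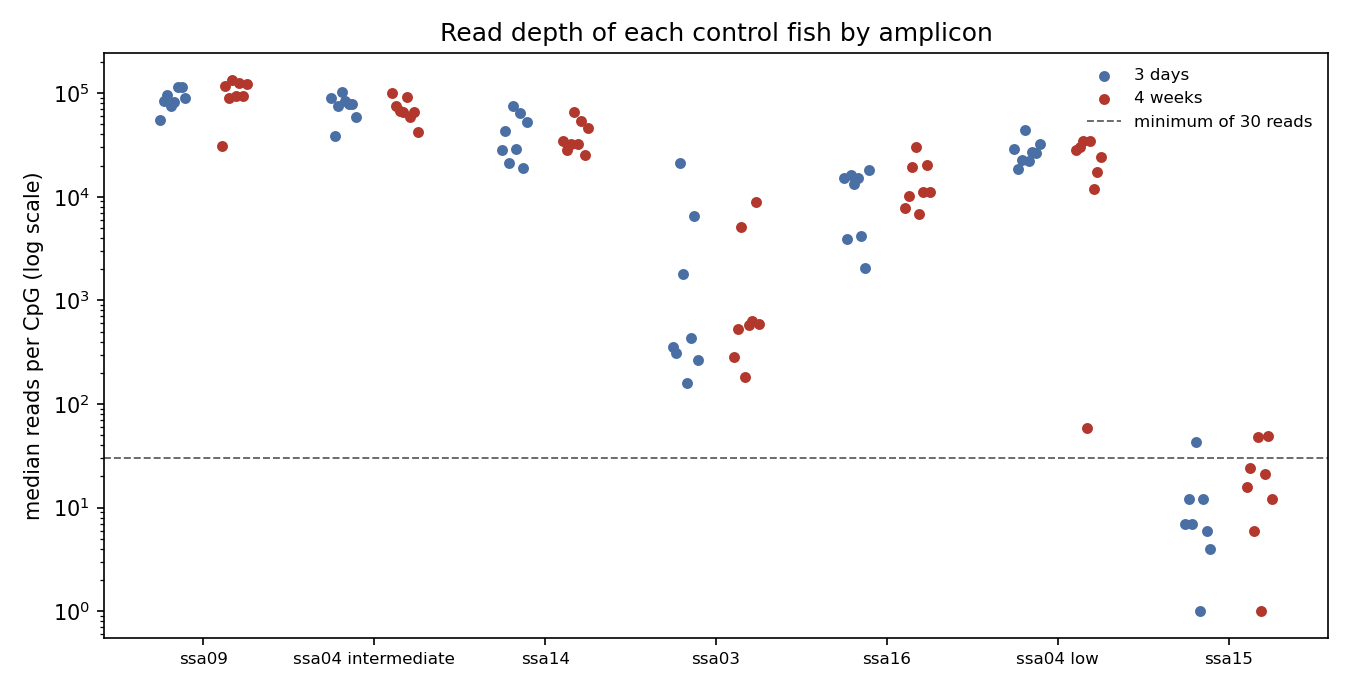
Median reads per CpG (log scale) of each control fish in the 7 amplicons, with fish of 3 days in blue and of 4 weeks in red. The ssa03 amplicon ranged from 160 to 21254 reads, 1 fish of 4 weeks had 59 reads at low ssa04, and most fish lay under the minimum of 30 reads at ssa15.

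No amplicon changed its mean level between 3 days and 4 weeks past the threshold. Of the 6 amplicons, 0 (0% of those tested) had an adjusted p under 0.05 in the exact permutation test, and 0 had an unadjusted p under 0.05. Without fish 84 and 108 the adjusted p was 0.608 or more in all 6. Over the 16 fish ssa09 averaged 92.2%, intermediate ssa04 26.8% and ssa14 1.34%, and ssa03, low ssa04 and ssa16 lay under 1% in every control fish.

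The ssa09 amplicon was the most methylated. Fish of 3 days had mean levels from 90.6% to 92.9% with a median of 92.0%, and fish of 4 weeks from 91.0% to 93.5% with a median of 92.6%. The groups overlapped, with 2 fish of 4 weeks above every fish of 3 days. The group means were 92.0% ± 0.859 and 92.5% ± 0.732 (SD, n = 8 each) and differed by 0.473 percentage points (SE 0.399, 95% interval -0.383 to 1.33, exact permutation p = 0.252, adjusted p = 0.713). It was 0.272 without fish 85 of 3 days and 0.680 without fish 105 of 4 weeks.

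The intermediate ssa04 amplicon had the widest spread between fish. At 3 days its mean level ran from 16.1% to 36.0% with a median of 25.7%, and at 4 weeks from 19.7% to 38.3% with a median of 27.0%. Each time thus held fish near the bottom and near the top of the whole range. The means of 26.0% ± 5.75 and 27.6% ± 5.86 (SD, n = 8 each) differed by 1.59 points (SE 2.90, interval -4.55 to 7.73, exact permutation p = 0.594, adjusted p = 0.713). Single fish carried this value. It was 0.168 without fish 84 of 3 days, 0.0624 without fish 107 of 4 weeks and 3.01 without fish 82 of 3 days.

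At ssa14 the fish of 3 days lay between 0.768% and 2.90% with a median of 1.26%, and those of 4 weeks between 0.867% and 1.47% with a median of 1.40%. Fish 84 alone held the value of 2.90%, and the next fish of its group had 1.35%. The means were 1.40% ± 0.634 and 1.29% ± 0.223 (SD, n = 8 each) and differed by -0.109 points (SE 0.237, interval -0.614 to 0.296, exact permutation p = 0.822, adjusted p = 0.822). Without fish 84 the difference turned to 0.105, with 4 weeks higher.

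The ssa03 amplicon had the smallest p of the 6. Levels of 3 days ran from 0.471% to 0.866% with a median of 0.675%, and those of 4 weeks from 0.660% to 0.956% with a median of 0.799%. Of the 8 fish of 4 weeks, 7 lay above the median of 3 days, while 4 fish of 3 days lay below every fish of 4 weeks. The mean went from 0.692% ± 0.145 to 0.812% ± 0.103 (SD, n = 8 each) and so differed by 0.119 points (SE 0.0629, interval -0.0155 to 0.256, exact permutation p = 0.0797, adjusted p = 0.478). A fish had from 12 to 2915 methylated calls in this amplicon, with a median of 45 at 3 days and 72 at 4 weeks. Counting error alone made up 50.2% of the variance between fish here, and with fish weighted by their reads the difference was 0.0176. At 3 days this weighting rested mainly on fish 83 and 87, with 21254 and 6511.5 reads per CpG. At 4 weeks it rested mainly on fish 107 and 111, with 5083.5 and 8839, and the other control fish had 1808 or fewer.

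Low ssa04 ran from 0.369% to 0.716% at 3 days, with a median of 0.483%, and from 0.415% to 0.908% at 4 weeks, with a median of 0.510%. The highest value belonged to fish 85 at 3 days and to fish 108 at 4 weeks, and the next fish had 0.528% and 0.675%. The means of 0.499% ± 0.0998 and 0.565% ± 0.161 (SD, n = 8 each) differed by 0.0662 points (SE 0.0671, interval -0.0708 to 0.211, exact permutation p = 0.363, adjusted p = 0.713). Fish 108 had 59 reads per CpG there and 8 methylated calls in all. Without it the difference was 0.0172, and without fish 85 it was 0.0973.

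The CpG-dense ssa16 amplicon was the most even. Its levels ran from 0.469% to 0.595% at 3 days, with a median of 0.537%, and from 0.433% to 0.584% at 4 weeks, with a median of 0.521%. Both times covered nearly the same range. The means of 0.536% ± 0.0409 and 0.519% ± 0.0516 (SD, n = 8 each) differed by -0.0166 points (SE 0.0233, interval -0.0670 to 0.0334, exact permutation p = 0.485, adjusted p = 0.713). Leaving out single fish moved it from -0.00432 without fish 107 of 4 weeks to -0.0261 without fish 87 of 3 days.

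**Figure D2:**
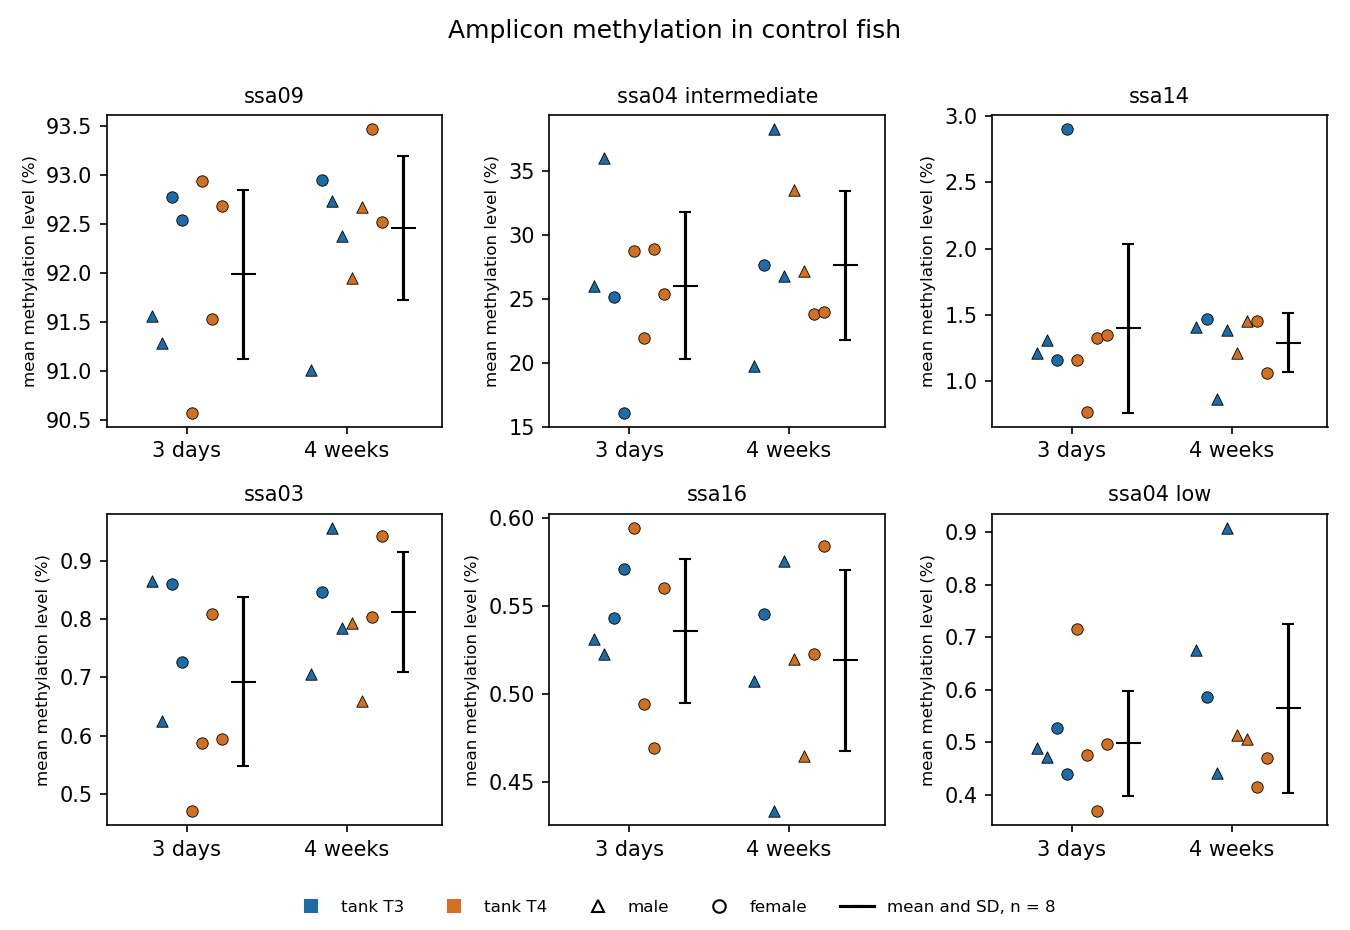
Mean methylation level (%) of each amplicon in every control fish at 3 days and 4 weeks, coloured by tank and shaped by sex, with the group mean and SD beside the points. Each panel has its own axis, which does not start at 0. The groups overlap in all 6 panels. A single fish at 2.90% stands off from the rest in ssa14, and the highest fish of low ssa04 lies at 0.908%.

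At the level of single CpGs, 0 of 94 (0%) passed an adjusted p of 0.05 in the exact permutation test, and the smallest adjusted p was 0.924. Without adjustment 3 of 94 (3.19%) had a p under 0.05, all higher at 4 weeks. Limma on M-values, log ratios of methylated to unmethylated calls, also called 0, with 2 CpGs under 0.05 before adjustment. Of these, only 13688501 of ssa03 (limma p = 0.0195) was also under 0.05 in the exact test. The others of the exact test, 13688533 of ssa03 and 121687082 of ssa09, had limma p-values of 0.0646 and 0.0982. Higher means at 4 weeks were found at 56 CpGs and lower means at 38. At intermediate ssa04 16 of 18 CpGs were higher at 4 weeks, but CpGs of that amplicon rose and fell together from fish to fish and are not separate observations.

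The 5 CpGs with the smallest p were described further. Position 13688501 of ssa03 ran from 0% to 0.722% at 3 days with a median of 0.314%, and from 0.381% to 0.943% at 4 weeks with a median of 0.665%. All 8 fish of 4 weeks lay above the median of 3 days. Except for fish 107 and 111, each of them rested on 1 to 6 methylated calls. Fish 81, 86 and 88 of 3 days had 1 methylated call each. The difference was 0.338 points (SE 0.111, exact permutation p = 0.0101, adjusted p = 0.924), and 0.185 with fish weighted by reads (exact permutation p = 0.447). In 2 fish of 3 days no methylated call was seen at this CpG, among 312 and 159 reads, which allows levels of up to 0.962% and 1.89%.

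A second CpG of ssa03, 13688533, ran from 0% to 0.570% at 3 days with a median of 0.351%, and from 0% to 1.63% at 4 weeks with a median of 0.991%. Its groups overlapped, since 1 fish of 4 weeks had 0 methylated calls in 283 reads, which allows up to 1.06%. The difference was 0.598 points (SE 0.237, exact permutation p = 0.0303, adjusted p = 0.924), and 0.0537 by reads.

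In the deeply sequenced ssa09 amplicon, 121687082 ran from 94.8% to 96.0% at 3 days with a median of 95.8%, and from 95.3% to 97.6% at 4 weeks with a median of 96.6%. The fish of 4 weeks spread above those of 3 days but reached down into their range. The means were 95.6% ± 0.416 and 96.4% ± 0.837 (SD, n = 8 each) and differed by 0.778 points (SE 0.330, exact permutation p = 0.0342, adjusted p = 0.924).

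The remaining pair lay in low ssa04. At 44947211 the fish ran from 0.163% to 1.81% at 3 days with a median of 0.752%, and from 0% to 0.826% at 4 weeks with a median of 0.217%. The 0% was that of fish 108, with 0 methylated calls in 59 reads, which allows up to 5.08%, so it cannot be placed among the rest. The other fish overlapped between the groups, with 3 of 3 days above the 7 of 4 weeks. The difference was -0.464 points (SE 0.234, exact permutation p = 0.0682, adjusted p = 0.924). At 44947109 the 3-day fish were tight, from 0.441% to 0.687% with a median of 0.473%, and those of 4 weeks ran from 0.397% to 3.39% with a median of 0.630%. The top value rested on 2 methylated calls among 59 reads in fish 108. The difference was 0.536 points (SE 0.353, exact permutation p = 0.0807, adjusted p = 0.924), and 0.203 without that fish.

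**Figure D3:**
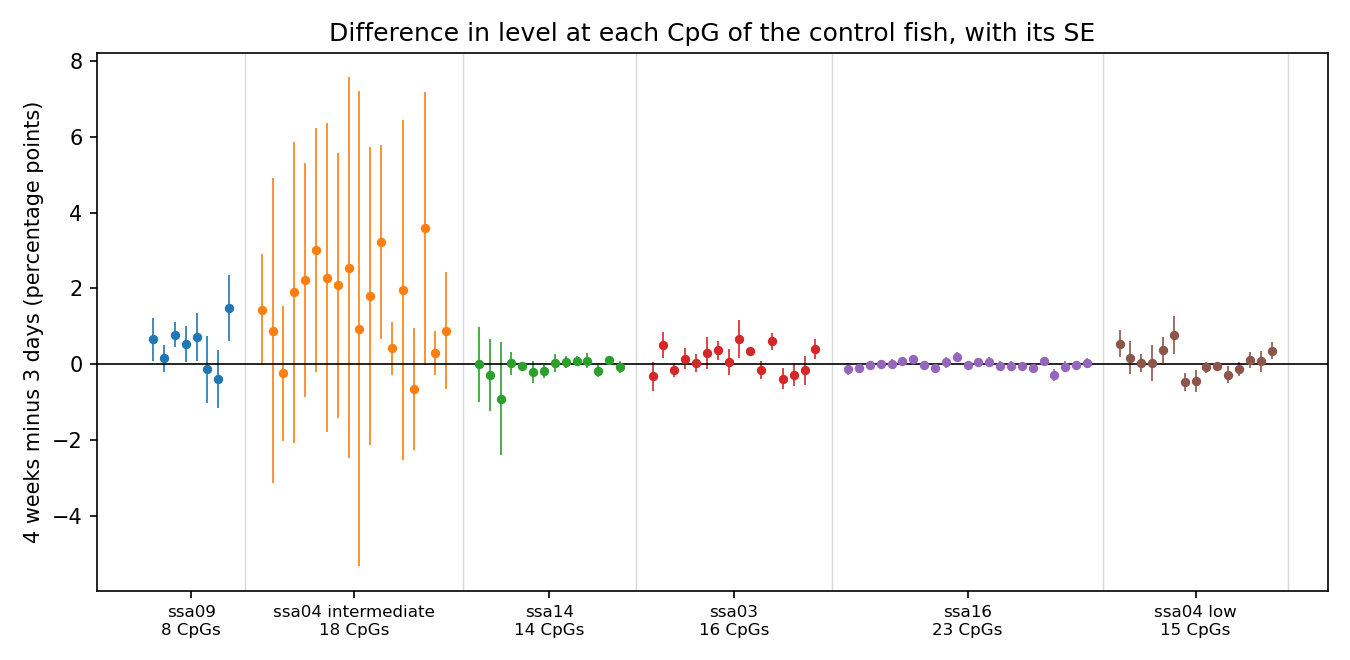
Difference in methylation level between 4 weeks and 3 days (percentage points) at each of the 94 CpGs, in the order of their positions within each amplicon, with error bars of 1 SE over fish (n = 8 per time). The widest bars are those of intermediate ssa04, where 16 of 18 points lie above 0, and the points of ssa16 lie close to 0.

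Within each amplicon the CpG means had a larger SD than the difference between times. At intermediate ssa04 the mean over the 16 fish ran from 2.42% ± 1.36 at 35436037 to 63.9% ± 6.43 at 35435919 (SD, n = 16). The top CpG was the same in 16 of 16 fish, where it had 52.8% to 77.6%, and the bottom CpG was the same in 14. The widest spread between fish was at 35435961, with 49.8% ± 12.1 and values from 24.0% to 71.4%. CpG means of this amplicon had an SD of 18.9 points, against 5.67 points between the means of the fish.

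Neighbouring CpGs could differ sharply. At intermediate ssa04, 35435854 had a mean of 9.40% and 35435856, which lies 2 bp on, had 22.8%. The second was higher in 16 of 16 fish, by 6.06 to 24.1 points. Likewise 35436181 had 15.4% and 35436184, 3 bp on, had 37.9%, again higher in 16 of 16 fish. Another close pair, 35435956 at 45.8% and 35435961 at 49.8%, kept its order in 12 fish. In ssa09 121687145 had 85.9% and 121687148 had 90.7%, with the second higher in 16 of 16 fish. All calls lay on the plus strand, so the opposite cytosines of these CpGs were not measured.

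The base that follows a CpG was read from the context column of the files. At intermediate ssa04 the 7 CpGs followed by T had a mean of 19.2%, the 6 followed by A 31.2%, the 3 followed by C 32.2% and the 2 followed by G 32.6%. These classes overlapped widely, from 2.42% to 42.5% for CGT and from 2.99% to 63.9% for CGA, so the following base did not sort the CpGs by level.

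**Figure D4:**
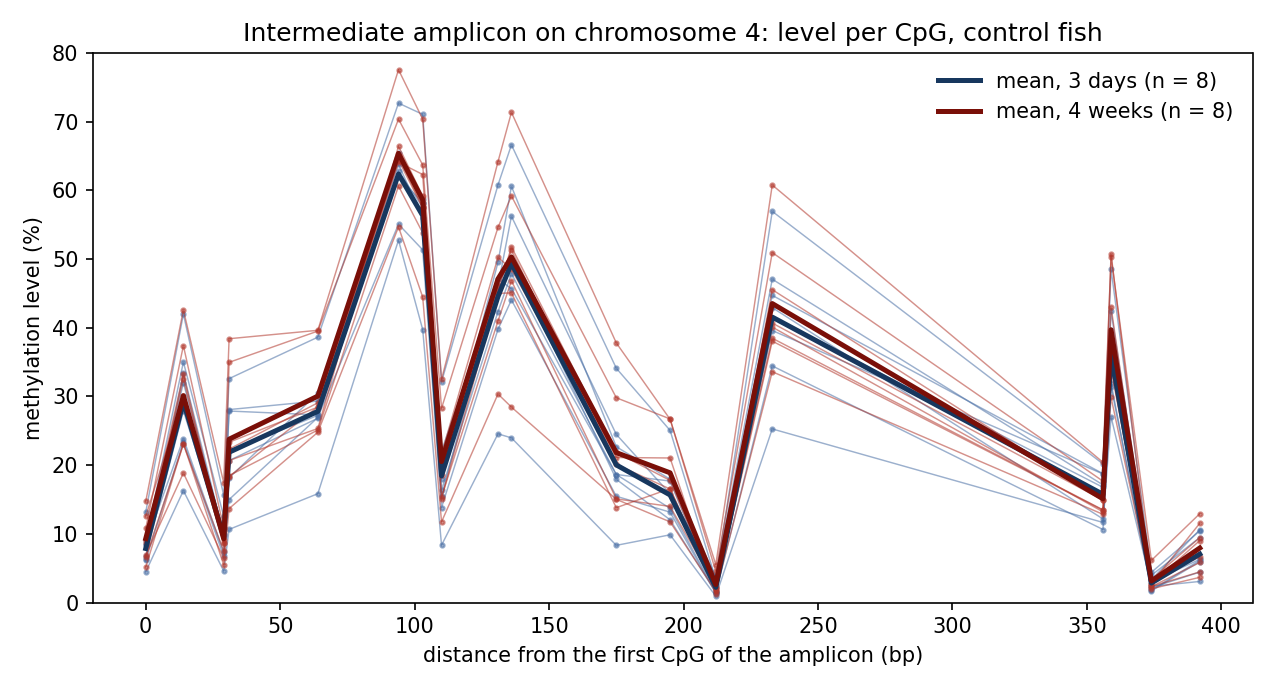
Methylation level (%) at the 18 CpGs of intermediate ssa04 against the distance from its first CpG (bp), 1 thin line per control fish, with fish of 3 days in blue and of 4 weeks in red and the group means (n = 8) as thick lines. The fish spread most at 35435961, with a mean of 49.8%, and little where the level is low. The mean lines lie within the spread of the fish. The peak at 63.9% and the trough at 2.42% stand at the same CpGs at both times.

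Some fish lay high or low along the whole profile. Fish 82 of 3 days and fish 107 and 109 of 4 weeks lay above the median of the 16 fish at 18 of 18 CpGs, and fish 107 was highest at 15 of them. Fish 84 and 86 of 3 days and fish 105 of 4 weeks lay above it at 0 of 18, and fish 84 was lowest at 16. The distance from the mean of the 16 fish varied along the profile, from -25.9 to -0.634 points in fish 84 and from 3.10 to 21.5 points in fish 107. Other fish crossed that mean, as fish 88 did, from -5.97 to 3.72 points. The SD of the amplicon mean within times was 5.81 points, which is 3.59 times the 1.62 points that separately varying CpGs would give. The same ratio was 1.76 at ssa09 and 1.56 at ssa14, and 0.916 at ssa16, 0.854 at low ssa04 and 0.813 at ssa03. The ratio at ssa14 includes fish 84, which lay up to 10.7 points above the mean of the 16 fish at a CpG. It was not recomputed without that fish. Counting error made up 0.00405% of the variance between fish at intermediate ssa04, 0.165% at ssa09, 0.122% at ssa14, 13.2% at ssa16 and 35.5% at low ssa04. These shares, like that at ssa03, take each call as independent. They leave out any error shared by calls of the same read or by reads that stem from the same molecule. The share at low ssa04 rested mostly on fish 108, with 59 reads per CpG. The largest counting SE of a fish there was 0.316 points, against a median of 0.0113.

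The other amplicons had flatter profiles. In ssa09 the means ran from 85.9% ± 1.70 at 121687145, the lowest CpG in 12 fish, to 96.2% ± 0.680 at 121687058, the highest in 9 (SD, n = 16). Its most variable CpG was the last, 121687311, with 87.1% ± 1.87 and values from 84.0% to 90.8%. Fish 85 lay above the median of the 16 fish at 0 of 8 CpGs.

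In ssa14 the first CpG, 33502562, was highest in 14 fish, with 5.25% ± 1.92 (SD, n = 16) and values from 2.38% to 8.81%, and 33502965 was lowest on average, at 0.346% ± 0.194. The CpG with the widest spread was 33502613, at 2.61% ± 2.94, where fish 84 had 13.3% and every other control fish 2.69% or less. The high mean of fish 84 came with raised levels at this CpG and at 33502611, 2 bp before it, where it had 7.46% and the next fish 5.30%. Fish 84 lay above the median of the 16 fish at 12 of 14 CpGs and was highest at 4 of them. Whether its calls outside the amplicons have a part in this was not tested.

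In ssa16 37941956 stood out at 1.14% ± 0.158 (SD, n = 16), with values from 0.946% to 1.40%, and was highest in 10 fish, while the lowest mean was 0.295% ± 0.124 at 37941770. The widest spread was 0.345 points (SD) at 37942051, from 0.101% to 1.38%. In ssa03 the highest mean was 1.66% ± 0.664 at 13688441, the lowest 0.360% ± 0.375 at 13688266 and the widest spread 1.01 points (SD) at 13688499. In low ssa04 the highest mean was 0.809% ± 0.839 at 44947115, the lowest 0.271% ± 0.292 at 44947231 and the widest spread 1.04 points (SD) at 44947203. The first of these rested on 2 methylated calls in 58 reads of fish 108, without which 44947115 had 0.633%, below 44947203 with 0.697% and 44947216 with 0.671%. The top CpGs of ssa03 and low ssa04 by mean were highest in 6 and 3 fish only, so the observed order of CpGs varied from fish to fish. The part of counting error in this order was not tested.

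Spread between fish was compared as well as level. Mean absolute deviations from the group median did not differ between the times past the threshold in any of the 6 amplicons (smallest exact permutation p = 0.163, adjusted p = 0.777). The largest gap in SD was at ssa14, 0.634 at 3 days and 0.223 at 4 weeks. There the difference in mean deviation was -0.166 points, and 0.0479 without fish 84 and 108. Reads per CpG did not differ between times past the threshold either (smallest adjusted p = 0.882, exact permutation test).

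Differences between the 2 control tanks were tested within times. At ssa03 the fish of T3 had 0.796% ± 0.107 and those of T4 0.708% ± 0.155 (SD, n = 8 each), which differed by -0.0885 points (exact permutation p = 0.169, adjusted p = 0.800). The other amplicons had adjusted p-values of 0.800 or more. The change over time was 0.0542 points in T3 and 0.185 in T4 at ssa03, 2.29 and 0.886 at intermediate ssa04, and 0.226 and 0.720 at ssa09. It had opposite signs in the tanks at low ssa04, 0.171 in T3 and -0.0381 in T4, and at ssa14, -0.363 and 0.145. The T3 means there include fish 108 at low ssa04, with 0.908% at 4 weeks, and fish 84 at ssa14, with 2.90% at 3 days. With 4 fish per tank and time, these changes carry no test of their own.

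Since males were 2 of 8 fish at 3 days and 5 of 8 at 4 weeks, levels were also compared between sexes within times. At intermediate ssa04 males had 29.7% ± 6.55 (SD, n = 7) and females 24.6% ± 3.97 (SD, n = 9), with a within-time difference of 5.15 points (exact permutation p = 0.106, adjusted p = 0.318). At ssa09 males had 91.9% ± 0.682 and females 92.4% ± 0.868, with a within-time difference of -0.794 points (exact permutation p = 0.0644, adjusted p = 0.318). Neither passed the threshold, and the remaining amplicons had adjusted p-values of 0.409 or more. At intermediate ssa04 the time difference of 1.59 points became -0.345 when times were compared within sexes, with -1.90 in males and 0.763 in females. The male mean of 3 days rested on 2 fish, both from T3. At ssa09 the time difference went the other way, from 0.473 to 0.771 (exact permutation p = 0.0703, adjusted p = 0.299), with 0.722 in males and 0.806 in females. Within sexes it was -0.0662 at ssa14 and -0.00410 at ssa16. At ssa03 it was 0.0349 in males and 0.190 in females.

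Levels were set against log10 reads per CpG across the 16 control fish, in 6 relations. At ssa03 Pearson's r was 0.525 (permutation p = 0.0377, adjusted p = 0.0753) and Spearman's rho 0.582 (permutation p = 0.0198, adjusted p = 0.119). Without fish 83 and 111, the farthest from the median depth, r was 0.523 (permutation p = 0.0558). Within times r was 0.718 at 3 days (permutation p = 0.0481, n = 8, adjusted over the 12 within-time relations 0.192) and 0.394 at 4 weeks (permutation p = 0.337, n = 8). At 3 days it was also 0.848 at ssa16 (permutation p = 0.00606, adjusted p = 0.0727, n = 8) and -0.763 at intermediate ssa04 (permutation p = 0.0357, adjusted p = 0.192, n = 8), against 0.0668 and 0.0451 at 4 weeks. The largest values of 4 weeks were 0.725 at ssa09 (permutation p = 0.0820, n = 8) and -0.824 at low ssa04 (permutation p = 0.0860, n = 8). Both had an adjusted p of 0.206, and r at 3 days was 0.308 and -0.353 there. Over the 16 fish r at low ssa04 was -0.738 (permutation p = 0.0269, adjusted p = 0.0753) and rho -0.218 (permutation p = 0.418, adjusted p = 0.501). That relation rested on fish 108 and 110, without which r was -0.0511. At ssa09 r over the 16 fish was 0.532 (permutation p = 0.0308, adjusted p = 0.0753) and rho 0.426 (permutation p = 0.0992, adjusted p = 0.298), and r fell to 0.285 without fish 81 and 105. None of the 6 relations and none of the 12 within times passed the adjusted threshold, and the part of depth in the levels was not tested further.

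The change of the control fish was set against that of the warmed fish. Warm normoxic fish were brought from 12 to 20 °C at 100% air saturation, and warm hypoxic fish along the same ramp at 70%, with 8 fish at each time from 2 tanks per treatment. Both tests share the control fish and have no term for sex. Most warm hypoxic fish were male at 3 days and female at 4 weeks. Among control fish it was the reverse. Warm normoxic fish had equal numbers of both sexes at 3 days and, like the control fish, more males than females at 4 weeks. In 12 tests over 6 amplicons, 1 difference between the changes (8.33%) passed an adjusted p of 0.05.

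That one was at ssa03. Warm hypoxic fish ran from 0.542% to 1.09% at 3 days and from 0.376% to 0.679% at 4 weeks, so their highest fish of 4 weeks lay below the control mean of 4 weeks. Their mean fell from 0.746% ± 0.187 to 0.560% ± 0.0948 (SD, n = 8 each), a change of -0.186 points (SE 0.0742), against 0.119 in control fish. The changes differed by -0.306 points (permutation p = 0.00231, adjusted p = 0.0277). Warm normoxic fish went from 0.680% ± 0.112 to 0.665% ± 0.138 (SD, n = 8 each), and their change differed from that of control fish by -0.134 points (permutation p = 0.127, adjusted p = 0.380).

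The call at ssa03 depended on the weighting, on single fish and on single tanks. With fish weighted by reads the difference was -0.0159 points (permutation p = 0.802, adjusted p = 0.892), and it ran from -0.335 to -0.256 when single fish were left out, where the adjusted p rose above 0.05 without control fish 85, 86, 107 or 112 or warm hypoxic fish 96 or 98. The changes per tank were 0.0542 and 0.185 in control tanks and -0.108 and -0.264 in warm hypoxic tanks, so both tanks moved the same way in each of these treatments. The warm normoxic tanks moved in opposite directions, by -0.0499 in T2 and 0.0198 in T5. Without T3, T4 or T6 the adjusted p was 0.0522, 0.274 and 0.431, and without T1 it was 0.0233, by the same permutation test. The median fish had 396.5 and 587 reads per CpG in control fish of 3 days and 4 weeks, and 702.5 and 583.5 in warm hypoxic fish. The deepest had 21254 in control and 14776.5 in warm hypoxic fish, both of 3 days. Weighting by reads thus rested largely on the deepest fish. The part of depth in this result was not tested beyond these values, and the part of sex was not tested.

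In the other amplicons no change over time differed from that of control fish past the threshold, with adjusted p-values of 0.380 or more in the permutation test. At intermediate ssa04 the changes were 1.59 points in control, 0.124 in warm normoxic and 2.67 in warm hypoxic fish. At ssa09 they were 0.473, 1.03 and -0.506 points, and at ssa14 -0.109, 0.286 and 0.358. At low ssa04 they were 0.0662, 0.0906 and -0.00593, and at ssa16 -0.0166, -0.0110 and 0.0266.

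**Figure D5:**
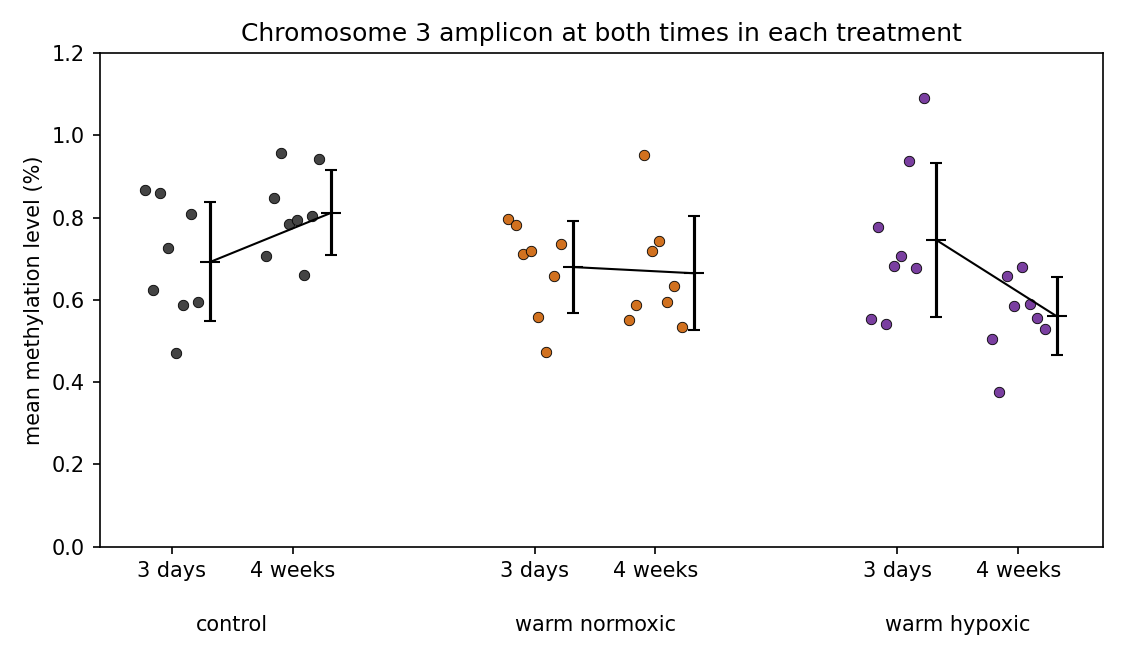
Mean methylation level (%) of the ssa03 amplicon in each fish at 3 days and 4 weeks, for control, warm normoxic and warm hypoxic fish (n = 8 per group), with group means and SD joined by lines. The mean rises from 0.692% to 0.812% in control fish, a step that did not pass the test, and falls from 0.746% to 0.560% in warm hypoxic fish.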

How the data were processed

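Per the labels, DNA from each liver was bisulfite-converted and sequenced as an amplicon library on a MiSeq instrument. Bismark 0.20.0 with Bowtie2, Trim Galore 0.4.4 and MultiQC 1.9 are listed in the submitters' processing notes. Their settings, the conversion rate, the handling of duplicate reads and the genome build's name are not given in the sources used here.

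Whole-number counts of methylated and unmethylated calls per CpG were deposited by the authors, 1 file per fish, without normalization. Amplicons were runs of CpGs called in all 48 fish and less than 1000 bp apart. Levels were methylated over all calls, for CpGs with 30 or more reads in each control fish, and an amplicon's value in a fish was the unweighted mean of its CpGs. Fish were weighted equally.

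Times were compared by the difference of means over all 12870 splits of the 16 fish (two-sided, smallest possible p 0.000155), with Benjamini-Hochberg adjustment over 94 CpGs or 6 amplicons and a threshold of 0.05. Tank and sex labels were permuted within times. The 95% intervals hold the shifts that the test did not reject. Changes over time were compared between treatments by 100000 permutations of residuals of the additive model, adjusted over 12 tests. Limma 3.58.1 in R 4.3.3 was an alternative, as were other coverage minimums, weighting by reads, blocks by tank or sex, and leaving out fish or tanks. The exact test was tried on simulated CpGs that varied separately, and the test of changes between treatments on simulated normal values. The other tests were not tried on simulated data. Python 3.11.15, numpy 2.4.6 and scipy 1.17.1 were used. Since each treatment had 2 tanks, p-values measure the spread between fish and not between tanks. No 2 files of a time were alike: counts of the closest pair, fish 108 and 110, gave a chi-square per CpG of 58.9.

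The amplicons, CpGs and tests were chosen with earlier results of these data known. Text names all amplicons, the 5 CpGs with the smallest p, and in each amplicon the CpGs with the highest and lowest mean and the largest SD. CpGs named beside them as close neighbours lay within 5 bp of each other and were picked after their values were seen, as were 33502611 and the fish named.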

Additional observations from a re-analysis of the deposited data

Results flagged for a closer look

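In 12 groups of 8 control fish, the 6 amplicon means at each time, 2 had a fish far from the others, where chance gives about 0.6 at 1 in 20. These were fish 85 of 3 days at low ssa04, with 0.716% against 0.528% in the next fish, and fish 84 of 3 days at ssa14, with 2.90% against 1.35%.

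A further 7 groups came from the named CpGs, some of which were chosen for a wide spread or a small p, so that the count chance gives does not apply to them. Among the CpGs of 3 days, fish 84 had 13.3% at 33502613 (10039 of 75319 reads) against 2.69% in the next fish, and fish 88 had 1.24% at 44947231 (397 of 32100 reads) against 0.227%. Among those of 4 weeks, fish 108 had 3.39% at 44947109 and 3.45% at 44947115, each from 2 methylated calls. The next fish there had 1.34% and 0.923%. Fish 106 had 2.90% at 13688441 (15 of 518 reads) against 1.86%, and 0.672% at 44947231 (205 of 30516 reads) against 0.269%. Fish 105 had 4.23% at 13688499 (12 of 284 reads), and the next fish had 10 methylated calls in 525 reads.

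The change of the ssa03 amplicon over time differed between warm hypoxic and control fish by -0.306 points (permutation p = 0.00231, adjusted p = 0.0277). This difference was -0.0159 with fish weighted by reads, a weighting that rests largely on the deepest fish, as described above.

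Calls outside the 7 amplicons were seen in 6 of 16 control fish. Fish 84 had 4029 such calls at 158 CpGs, 2306 of them methylated, which were 0.0898% of its calls. Fish 88 had 49 at 44 CpGs, 36 of them methylated. The other 4 fish had 3 or fewer calls each, and 10 fish had none.

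The shallow amplicon on chromosome 15 had 89 methylated calls among 3475 in the 16 control fish, 25 of 1189 at 3 days and 64 of 2286 at 4 weeks. Only 3 fish reached 30 reads at all 13 CpGs. Their levels were 1.98% in fish 84 (95% Wilson interval 1.11 to 3.51), 0.643% in fish 108 (0.250 to 1.64) and 3.95% in fish 111 (2.69 to 5.77), and the intervals cover counting error only. These fish had 43, 48 and 49 reads per CpG. The intervals take calls at different CpGs of the same read as independent, so they can be too narrow even for counting error.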

How the results depend on the processing

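Under all alternatives run, 161 amplicon differences between times were computed, among them repeats of the main values under other coverage rules. Of the 161, 0 had an adjusted p under 0.05, the smallest being 0.234 by exact permutation. CpGs past the threshold stayed at 0 in every alternative. Without tank T3 or T4 only 4 fish stood against 4, and within sexes there were 1764 splits. These were too few for a single CpG to pass the adjusted threshold alone. Without a tank this also held for a single amplicon, so the 0 there shows little. With tank as a replicate block, 0 CpGs passed the threshold, and before adjustment 4 lay under 0.05. Replicate numbers only order the fish within a group, so no other pairing was possible. A minimum of 100 reads left no CpG at low ssa04. The causes of the shifts below were not tested.

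With fish weighted by reads, the sex difference at ssa03 was 0.0120 and the warm hypoxic minus control change was -0.0159 at ssa03 and 0.0148 at low ssa04; 1 CpG then had an unadjusted p under 0.05, as without tank T4. Within sexes the time difference at intermediate ssa04 was -0.345. Without tank T3 it was -0.0381 at low ssa04 and 0.145 at ssa14. Without fish 84 and 108, an alternative chosen after seeing the data, it was 0.0909 at ssa14, the tank difference at ssa16 was 0.0123 and the spread difference at ssa14 was 0.0479.

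The warm hypoxic minus control change at ssa03 lost its call without tank T3 (-0.371, adjusted p = 0.0522), T4 (-0.240, adjusted p = 0.274) or T6 (-0.228, adjusted p = 0.431) and kept it without T1 (-0.383, adjusted p = 0.0233), by permutation. Its values at other amplicons were 0.0322 at low ssa04 without T3 and -0.380 at intermediate ssa04 without T6. The warm normoxic minus control change was -0.106 at ssa09 and -0.00154 at ssa16 without T2, -0.00417 at ssa16 without T3, -0.0800 at low ssa04 without T4, and -0.0761 at low ssa04 and 0.179 at intermediate ssa04 without T5.

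Leaving out single fish gave the ranges below. Each listed difference changed sign in some of them, except the warm hypoxic minus control change at ssa03. Time differences at ssa14 ran from -0.199 to 0.105. Log10 read differences ran from -0.180 to 0.160 at ssa03, -0.0651 to 0.00394 at intermediate ssa04 and -0.0328 to 0.0534 at ssa14. Sex differences ran from -0.0736 to 0.0141 at ssa03 and -0.187 to 0.0127 at ssa14. Tank differences ran from -1.82 to 1.35 at intermediate ssa04, -0.0755 to 0.364 at ssa09 and -0.0160 to 0.00747 at ssa16. Spread differences ran from -0.895 to 1.13 at intermediate ssa04, -0.221 to 0.0283 at ssa14 and -0.000937 to 0.0125 at ssa16. Warm hypoxic minus control changes ran from -0.335 to -0.256 at ssa03 and -0.342 to 2.61 at intermediate ssa04. Warm normoxic minus control changes ran from -3.14 to 0.0617 at intermediate ssa04, -0.0144 to 0.0734 at low ssa04, -0.0240 to 0.881 at ssa09 and -0.0108 to 0.0207 at ssa16. The unadjusted CpG count ran from 1 to 4. Depth limits ssa03 and fish 108 at low ssa04, where single methylated calls move a level.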

Other observations

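Low ssa04 and ssa16 had similar mean levels, and their values above 1% can be set side by side for the 15 control fish other than fish 108. Low ssa04 held 225 values of a CpG in a fish, with a median of 0.269%, and 30 of them lay above 1%, on 14 of 15 CpGs and in 14 fish, with at most 5 fish at any CpG. At ssa16 32 of 345 values lay above 1%, on 12 of 23 CpGs and in 14 fish, and 12 of these were at 1 CpG, 37941956. The highest value was 3.78% at low ssa04 and 1.40% at ssa16, and the difference in placement was not tested. At 44947203 of low ssa04, fish 105 had 3.78% (1066 of 28231 reads, 95% Wilson interval 3.56 to 4.00) and fish 110 had 2.48% (297 of 11994 reads, 2.21 to 2.77), while the other fish with more than 59 reads had 0.900% or less. In fish 105 the CpG 8 bp on, 44947211, had 0.195%. The intervals cover counting error in PCR reads only.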
